A study of Mus musculus with 4 samples.

Results

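Fc receptors are the proteins through which dendritic cells, the antigen-presenting cells that prime T cells, take up antigen bound by IgG antibody. The genes described here are the mouse IgG Fc receptors Fcgr1, Fcgr2b, Fcgr3 and Fcgr4, the common gamma chain Fcer1g, the neonatal receptor Fcgrt, and Syk and Card9, which carry the signal onward. They were listed by gene family and path, by a rule that uses no measured value though earlier results of these data were known, and all 8 listed symbols were matched to a row among the 17300 genes of the deposited table. All 8 also passed the filter on low values, with 11864 genes tested in all.

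Total RNA of dendritic cells sorted by flow cytometry from mouse spleen was sequenced in 4 libraries, 2 of the genotype KO and 2 of the genotype WT. The series title concerns Siglec-E, an inhibitory receptor for sialic acid encoded by Siglece, and its control over antigen-presenting cells and the rejection of transplants. The column names of the KO libraries hold EKO, and each of the 4 column names also holds Allo, a word with no explanation in the labels. The labels state no age, strain or treatment of the mice, no way in which the allele was made, and not whether a library holds 1 animal or a pool. What the p-values measure is therefore the spread between libraries, and those of the WT pair may be technical repeats. Because the numbers in the KO columns are not those of the KO titles, these libraries are named KO A and B here, and the others WT 1 and 2. Where a pair of values is given, A comes before B and 1 before 2. Siglece stood at log2 values of 8.92 and 8.96 in the KO pair, against 10.38 and 10.14 in the WT pair. KO A stood apart from the others in Y-linked RNA, with Ddx3y at 64.5 normalized counts there and 3979 in KO B, against 3102 and 3500 in the WT pair. With this gap the KO libraries were not repeats of the same RNA, and Y-linked RNA was uneven within the KO pair only. The differences of the 8 genes and of their summed receptor ratio are therefore also given without KO A.

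FcγRI, FcγRIII and FcγRIV, the products of Fcgr1, Fcgr3 and Fcgr4, are activating receptors that signal through the gamma chain encoded by Fcer1g, whose cytoplasmic ITAM motif is phosphorylated by SRC family kinases and then binds the kinase SYK. FcγRIIb, the product of Fcgr2b, carries an inhibitory ITIM motif instead, which recruits the lipid phosphatase SHIP-1. SYK acts through phospholipase C gamma and protein kinase C delta on the adaptor CARD9, which assembles BCL10 and MALT1 and leads to NF-kB. In dendritic cells the balance between activating receptors and FcγRIIb is known to set the response to immune complexes, while FcRn, the product of Fcgrt, binds IgG in endosomes and protects it from degradation.

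In the KO libraries the activating receptor Fcgr3 was higher, by 1.77-fold in normalized counts, whereas the inhibitory Fcgr2b lay at the same level to within its error. At a threshold of 0.05 for the adjusted p, 1 of the 8 genes rose and 0 fell, which leaves 7 not past it. Over all 11864 genes tested, 4.69% passed as higher and 2.23% as lower, so 6.93% passed in either direction. The median difference of the 8 genes was 0.28 on the log2 scale, against -0.0017 over all genes tested.

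The bases just before the start site of the 4 IgG receptor genes and of Fcer1g are shown because Fcgr3 and Fcgr2b, which lie on the same chromosome and whose products share much of their outer part, differed in their change. Each stretch is the 150 bases before the RefSeq start site on GRCm38.p6, read 5′ to 3′ on the strand of the gene. Capitals mark the PU box GAGGAA or its reverse complement TTCCTC, a form of the site bound by the myeloid factor PU.1. Only these exact letters were searched, so a window without capitals can still hold other forms of the site. The authors' notes name a newer build, so these coordinates hold for GRCm38.p6 only.
Fcgr3 (chr1:171059404-171059553, minus strand): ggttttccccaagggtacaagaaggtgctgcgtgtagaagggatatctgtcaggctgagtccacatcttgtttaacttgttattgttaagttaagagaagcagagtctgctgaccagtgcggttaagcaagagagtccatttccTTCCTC
Fcgr2b (chr1:170976072-170976221, minus strand): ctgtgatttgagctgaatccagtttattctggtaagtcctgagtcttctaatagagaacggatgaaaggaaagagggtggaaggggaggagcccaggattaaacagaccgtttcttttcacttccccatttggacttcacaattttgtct
Fcgr4 (chr1:171018776-171018925, plus strand): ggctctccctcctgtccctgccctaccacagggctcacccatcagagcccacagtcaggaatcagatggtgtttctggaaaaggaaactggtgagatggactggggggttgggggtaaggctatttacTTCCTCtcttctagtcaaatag
Fcgr1 (chr3:96293970-96294119, minus strand): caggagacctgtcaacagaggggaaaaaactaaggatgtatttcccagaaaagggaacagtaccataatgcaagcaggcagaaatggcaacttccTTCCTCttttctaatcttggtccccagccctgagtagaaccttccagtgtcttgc
Fcer1g (chr1:171234350-171234499, minus strand): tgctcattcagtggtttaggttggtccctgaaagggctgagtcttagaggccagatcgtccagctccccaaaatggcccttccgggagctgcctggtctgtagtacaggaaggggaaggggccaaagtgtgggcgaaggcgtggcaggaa
The PU box was found in these windows of Fcgr3, Fcgr4 and Fcgr1, with its first base 6, 22 and 55 bases before the start, and not in those of Fcgr2b and Fcer1g. For Fcgr3 the first of 2 RefSeq starts is shown. On either strand, 14.4% of 27025 mouse promoters, 1 per gene, held the PU box in a window of this length. The interferon gamma activated site TTCNNNGAA was found in the Fcgr1 window only among these 5 genes and in 4.17% of all promoters. The AP-1 site TGANTCA was found in none of the 5 and in 4.27% of all promoters. No 2 of these matches overlapped in the windows shown. A match is a description of the letters and not a measured binding site.

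Among the activating receptors, Fcgr3, the gene of the low-affinity receptor CD16, had 3411 and 3282 normalized counts in the KO pair, against 1867 and 1919 in the WT pair. Both KO libraries lay above both WT libraries, and the gap was far wider than the spread within either group. On the log2 scale Fcgr3 averaged 11.91 ± 0.034 across KO libraries and 11.22 ± 0.023 across WT libraries (SD, n = 2 each). The difference was 0.69 (SE 0.0799, limma adjusted p = 0.0147). The difference was 0.67 without KO A and 0.71 without KO B, but neither passed (limma adjusted p = 0.0619 and 0.0851). Without these same libraries, 0 and 3 of all 11864 genes passed in limma, none of them in a list given here, with 2508 and 2448 at an unadjusted p under 0.05.

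Fcgr4, which in the mouse binds IgG2 subclasses, had 3309 and 2595 normalized counts in the KO pair, against 1822 and 1993 in the WT pair. The groups were apart, but the KO libraries differed from each other by more than the WT libraries did. Its log2 difference was 0.52 (SE 0.118, 95% interval 0.23 to 0.80, limma adjusted p = 0.0526), just short of the threshold. It passed with a filter of 2 log2 units (adjusted p = 0.0471) and with robust moderation in limma (adjusted p = 0.0445), and was 0.37 without KO A (adjusted p = 0.147).

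Fcgr1, the gene of the high-affinity receptor CD64, had 1191 and 766 normalized counts in the KO pair, against 478 and 647 in the WT pair. Its KO mean was 1.74-fold its WT mean in counts. Both KO libraries were above both WT libraries, with KO B close to WT 2. The log2 difference was 0.50 (SE 0.165, 95% interval 0.11 to 0.90, limma adjusted p = 0.125) and was 0.28 without KO A (adjusted p = 0.338). The intervals given here are for each gene alone and are not adjusted over genes.

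Fcgr2b, the inhibitory receptor, had 3094 and 2892 normalized counts in the KO pair, against 3154 and 2902 in the WT pair. The groups overlapped. The log2 difference was -0.014 (SE 0.0858, limma adjusted p = 0.944), and its 95% interval of -0.22 to 0.19 lay wholly below the interval of Fcgr3, which was 0.50 to 0.88. Without KO A the difference of Fcgr2b was -0.06. A total of 233 of the 1733 31-base words in the GENCODE M21 transcripts of Fcgr3 also occur in transcripts of Fcgr2b, which is 13.4% of the words of Fcgr3 and 4.15% of those of Fcgr2b. Reads from this shared stretch could be given to either gene, which makes the values of both uncertain. The share of reads affected was not measured, and the shares of words do not give it. Fcgr1 and Fcer1g shared 0% of such words with any other gene, and Fcgr4 shared 1.31%.

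**Figure D1:**
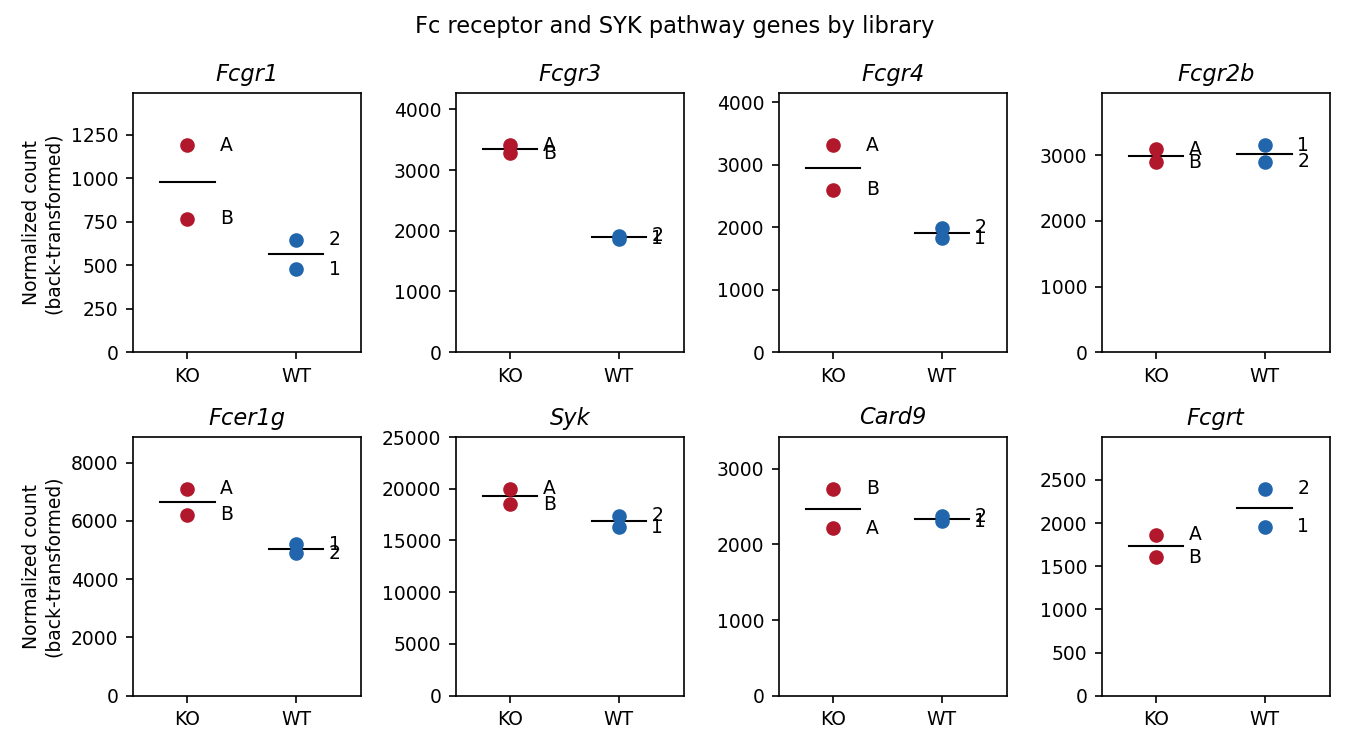
Normalized counts (back-transformed from the deposited log2 values) of the 8 genes, with 1 point per library, KO on the left and WT on the right, and a line at each group mean; letters and digits name the library. Fcgr3 lies at 3411 and 3282 in KO, against 1867 and 1919 in WT, while the points of Fcgr2b and Card9 overlap between the groups.

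Fcer1g, the gamma chain that the activating receptors need for signalling and for a stable place at the surface, had 7105 and 6218 normalized counts in the KO pair, against 5196 and 4886 in the WT pair. Each KO library was above each WT library. The log2 difference was 0.37 (SE 0.0930, 95% interval 0.14 to 0.59, limma adjusted p = 0.0665), and 0.28 without KO A (adjusted p = 0.197). Among all genes tested, 28.1% had both KO libraries above both WT libraries, and 5 of the 8 genes described here did.

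Syk, the kinase that binds phosphorylated ITAM motifs, had 20000.3 and 18515 normalized counts in the KO pair, against 16297 and 17372 in the WT pair. The groups were close but did not overlap. Its log2 difference was 0.19 (SE 0.0860, 95% interval -0.018 to 0.39, limma adjusted p = 0.239), so a rise of the size of Fcgr3 lies outside the interval. Without KO A the difference was 0.13 (adjusted p = 0.482).

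Card9, the adaptor downstream of SYK, had 2213 and 2736 normalized counts in the KO pair, against 2308 and 2371 in the WT pair. The WT libraries lay between the KO libraries. The log2 difference was 0.06 (SE 0.106, 95% interval -0.19 to 0.32, limma adjusted p = 0.770), with 0.19 without KO A and -0.07 without KO B.

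Fcgrt, the heavy chain of FcRn, had 1865 and 1604 normalized counts in the KO pair, against 1959 and 2398 in the WT pair. It was the 1 gene of the 8 with both KO libraries below both WT libraries, as 28.2% of all genes tested were. The log2 difference was -0.26 (SE 0.114, 95% interval -0.54 to 0.012, limma adjusted p = 0.221), and -0.35 without KO A (adjusted p = 0.234).

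**Figure D2:**
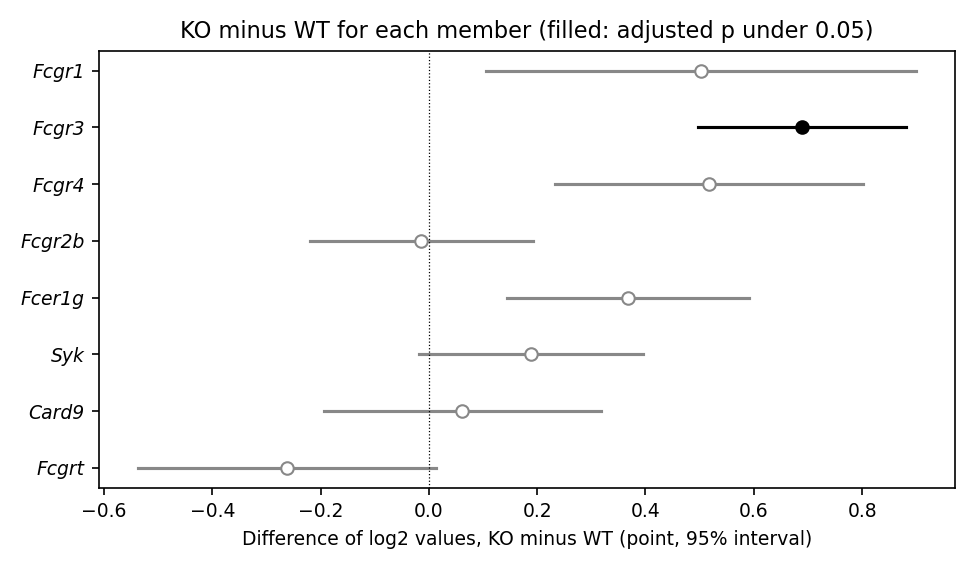
Difference of log2 values, KO minus WT, for the 8 genes on the horizontal axis, with the limma estimate as a point and its 95% interval, not adjusted over genes, as a line; the filled point has an adjusted p under 0.05. The interval of Fcgr3 is 0.50 to 0.88 and that of Fcgr2b is -0.22 to 0.19.

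The ratio of each activating receptor to Fcgr2b within a library does not depend on how libraries were scaled. It was taken on normalized counts with no correction for transcript length, so only its change between groups is read. The Fcgr3 to Fcgr2b ratio was 1.10 and 1.13 in the KO pair, against 0.592 and 0.661 in the WT pair. It averaged 1.12 ± 0.023 across KO libraries and 0.627 ± 0.049 across WT libraries (SD, n = 2 each), 1.79-fold higher in KO as a ratio of geometric means. The Fcgr4 to Fcgr2b ratio was 1.07 and 0.898 in KO, against 0.578 and 0.687 in WT. The Fcgr1 to Fcgr2b ratio was 0.385 and 0.265 in KO, against 0.151 and 0.223 in WT.

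With the 3 activating receptors summed, the ratio to Fcgr2b was 2.56 and 2.30 in the KO pair, against 1.32 and 1.57 in the WT pair. The log2 ratio was 0.75 higher in KO, 1.68-fold, with a pooled within-group SD of 0.15. Both KO libraries lay above both WT libraries for each of the 4 ratios. The exact two-sided permutation test gave p = 0.333 for each of the 4, the smallest value this test can give with 2 against 2 libraries, so it cannot reach 0.05 for a ratio whatever its size. Without KO A the summed difference was 0.67.

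**Figure D3:**
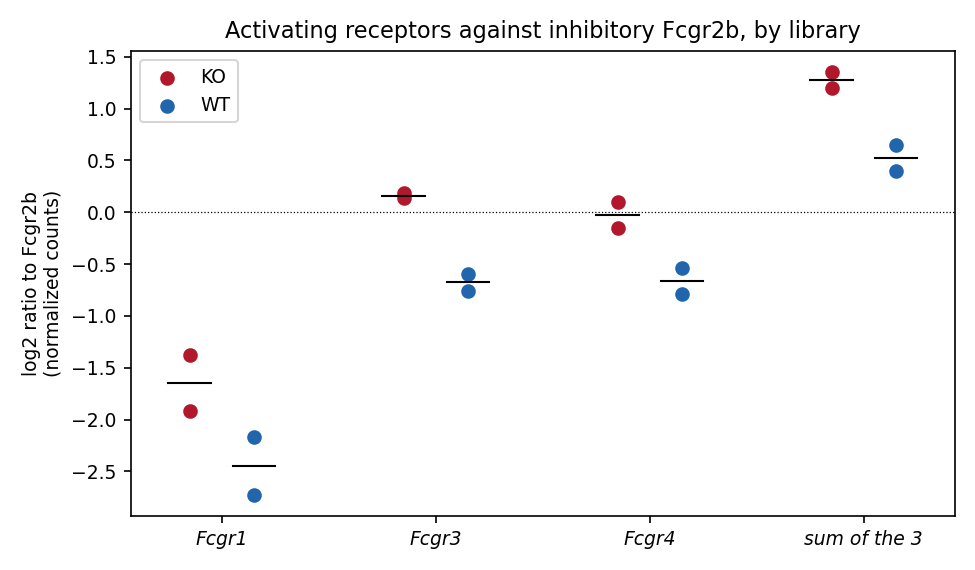
Log2 ratio of normalized counts of Fcgr1, Fcgr3, Fcgr4 and their sum to Fcgr2b in each library (vertical axis), with KO in red on the left of each pair, WT in blue on the right and lines at the group means. For the sum, the KO libraries are at 1.35 and 1.20, against 0.40 and 0.65 in the WT libraries.

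Levels can be set against each other between genes only per length, for which the median length of the coding transcripts of each gene in GENCODE M21 was used. Per kilobase, Fcer1g was the most abundant of the 8, with 9818 ± 925 normalized counts across KO libraries and 7430 ± 322 across WT libraries (SD, n = 2 each). Syk came next, with 3760 ± 205 per kilobase in KO and 3287 ± 148 in WT, and Fcgr1 was the least abundant, with 378 ± 116 in KO and 217 ± 46.2 in WT. Between them, Fcgr3 stood at 2527 ± 68.8 per kilobase in KO and 1430 ± 28.1 in WT, and Fcgr2b at 1969 ± 94.2 in KO and 1992 ± 117 in WT. By this measure Fcgr3 held place 3 of 8 in KO and place 6 in WT. Fcgr4, at 2351 ± 402 per kilobase in KO, did not differ from Fcgr3 or Fcgr2b in KO beyond its spread, and was at 1519 ± 96.0 in WT, next to Fcgr3. Fcgrt was at 1462 ± 155 per kilobase in KO and 1835 ± 261 in WT, and Card9 at 1293 ± 193 in KO and 1223 ± 23.1 in WT. These places depend on the transcript used. With the longest coding transcript, Fcgr3 held place 3 in KO and place 4 in WT, and Fcgr2b, at a mean of 845 per kilobase in KO and 854 in WT, held place 7 in both groups.

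Fcgr3 was set beside the genes most like it over the 4 libraries, by the distance between log2 values centred on each gene's mean. Of all genes tested, Mpp1, a membrane scaffold protein first known from red cells, was nearest, at a distance of 0.029. Its log2 values were 11.65 and 11.60 in the KO pair, against 10.92 in both libraries of the WT pair. Of the pathway genes listed below, the nearest was Pag1, an adaptor that recruits the SRC kinase inhibitor CSK, at a distance of 0.14. How many other genes lie close to Fcgr3 was not counted, and with 4 libraries nothing about shared control follows.

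Among the antibody genes listed, not all of which encode ligands of the IgG receptors, 3 of 7 rose, 0 fell and 4 did not pass, with a median of 0.66. Igha, the constant region of IgA, rose by 2.23 on the log2 scale (SE 0.263, limma adjusted p = 0.0151), which was 6.19-fold in counts. Jchain, which joins IgA and IgM subunits, rose by 1.03 (adjusted p = 0.0323) and Ighm, the constant region of IgM, by 0.37 (adjusted p = 0.0465). The call of Ighm ended without WT 1 (adjusted p = 0.149) and without WT 2 (adjusted p = 0.123), and also with no filter (0.0502), quantile normalization (0.0739), median centring (0.0543) and no intensity trend (0.0536). The 4 IgG genes, Ighg1, Ighg2b, Ighg2c and Ighg3, whose products are the ligands of the IgG receptors, did not pass. They differed by 0.66, 0.69, -0.37 and 0.32 in that order, and the groups overlapped for each. KO A was above KO B for each of the 4, for Ighg2b at 3536 against 948 normalized counts. Of 13 other Fc and Fc-like receptor genes 11 were matched and 5 were tested, of which 0 rose and 0 fell.

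In the list of ITAM adaptors and the receptors that pair with them, 1 of 14 tested genes was called higher, 1 lower and 12 neither, with a median of 0.35. Trem1, a receptor that pairs with the adaptor DAP12, rose by 1.02 (SE 0.0952, limma adjusted p = 0.0147), 4.14-fold in counts. Sirpb1a fell by 0.49 (adjusted p = 0.0329, and 0.0965 without WT 1). The difference of Tyrobp, the gene of DAP12 and a counterpart of Fcer1g, was 0.34 (adjusted p = 0.0661), a gene named after its values were seen.

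C-type lectin receptors that couple to SYK moved in both directions: 4 of 6 rose, 1 fell and 1 missed the threshold. Clec4e, the gene of Mincle, rose by 1.32 (SE 0.127, limma adjusted p = 0.0147), 3.55-fold in counts. Clec4n, the gene of Dectin-2, rose by 0.72 (adjusted p = 0.0352, and 0.0544 without WT 1) and Clec4d by 0.88 (adjusted p = 0.0372, and 0.0523 on a log2(normalized count + 1) scale). In counts Clec4n rose 2.74-fold and Clec4d 3.48-fold. Both Mincle and Dectin-2 pair with the gamma chain. Clec7a, the gene of Dectin-1, was the other that rose, by 0.50 (adjusted p = 0.0483), and its call ended with quantile normalization (adjusted p = 0.0815), median centring (0.0570), no intensity trend (0.0538), a log2(normalized count + 1) scale (0.0537), without WT 1 (0.101) and without WT 2 (0.0614). Clec9a, the receptor for dead cells on conventional DC1, fell by 0.58 (adjusted p = 0.0319, and 0.0595 without WT 2).

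Of 9 SRC family kinases and the SYK paralogue, 1 rose, 0 fell and 8 did not pass, with a median of 0.05. The gene that rose was Lck, a kinase of T and NK cells, by 0.77 (SE 0.110, limma adjusted p = 0.0206). Lyn, a main kinase of ITAM phosphorylation in myeloid cells, was named after its values were seen, with a difference of -0.0014 (adjusted p = 0.995). Of 25 tested SYK substrates and adaptors, 1 rose, 2 fell and 22 did not pass, with a median of -0.0054. Nfatc1 rose by 0.35 (adjusted p = 0.0467), and Nfatc2 fell by 0.38 (adjusted p = 0.0464) and the kinase subunit Pik3cb by 0.42 (adjusted p = 0.0499). The calls of these 3 ended with no filter on low values (adjusted p = 0.0521 to 0.0546), with no intensity trend (0.0534 to 0.0564), on a log2(normalized count + 1) scale (0.0515 to 0.0564) and without either WT 1 or WT 2 (0.0760 to 0.168). That of Nfatc1 also ended with quantile normalization (0.0641) and median centring (0.0540).

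In the list made for the CARD9 complex and its IKK branch, 0 of 14 genes rose, 1 fell and 13 did not pass, with a median of -0.03. The gene that fell was Rasgrp3, by 0.66 (SE 0.111, limma adjusted p = 0.0271). It encodes an activator of RAS proteins and not a part of the complex or of IKK. The partners of CARD9 were named after their values were seen. Bcl10 differed by 0.29 (adjusted p = 0.104) and Malt1 by -0.02 (adjusted p = 0.926).

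Among 25 phosphatases and other brakes on SYK, 3 rose, 1 fell and 21 did not pass, with a median of 0.07. Lilrb4a, an inhibitory receptor with ITIM motifs, rose by 0.82 (SE 0.127, limma adjusted p = 0.0242), Pag1 by 0.61 (adjusted p = 0.0198) and the adaptor Dok3 by 0.51 (adjusted p = 0.0407). The call of Dok3 ended with quantile normalization (adjusted p = 0.0689), median centring (0.0505) and without WT 2 (adjusted p = 0.109). The gene that fell was Siglece itself, by 1.32 (SE 0.107, limma adjusted p = 0.0138). In counts its KO mean was 0.139 of its WT mean. The phosphatase genes Inpp5d and Ptpn6 were named after their values were seen. Inpp5d, the gene of SHIP-1, which acts below FcγRIIb, differed by -0.05 (adjusted p = 0.781). Ptpn6, the gene of SHP-1, differed by 0.07 (adjusted p = 0.654), and its sign turned with quantile normalization.

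Genes switched on through SYK and CARD9, which many other stimuli also induce, included 9 of 10 tested that rose, 0 that fell and 1 that did not pass, with a median of 1.21. Tnfaip3, which edits ubiquitin and restrains NF-kB, rose by 1.27 (SE 0.103, limma adjusted p = 0.0138), Ptgs2 by 1.93 (adjusted p = 0.0147), Egr1 by 2.36 (adjusted p = 0.0147) and Nfkbiz by 0.999 (adjusted p = 0.0200). The rise of such immediate early genes in these libraries was known when the list was made, and the list is no independent evidence of a direction. Of the genes around FcRn, 1 of 9 rose and 8 did not pass. This was Ehd1, an endosomal recycling protein, by 0.57 (adjusted p = 0.0264, and 0.0602 without WT 1). B2m, the partner of FcRn and named after its values were seen, was at a difference of 0.10 (adjusted p = 0.635).

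**Figure D4:**
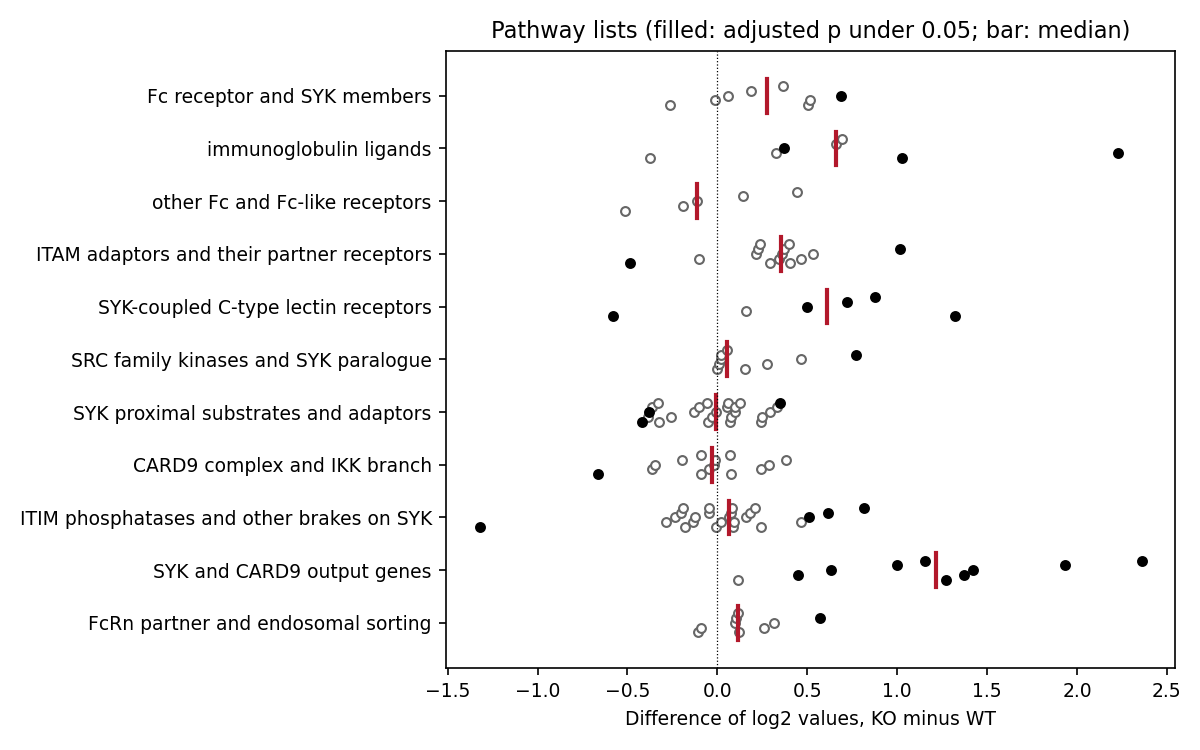
Difference of log2 values, KO minus WT (horizontal axis), for each tested gene of the 8 members and of each pathway list reported, with filled points for an adjusted p under 0.05 and a red bar at the list median. The medians are 1.21 for the SYK and CARD9 output genes and -0.0054 for the SYK substrates and adaptors.

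Macrophages, monocytes, neutrophils and NK cells also express activating Fc receptors, and markers of these cells were present in all 4 libraries. In bulk RNA, a change in the number of cells of a type and a change in RNA per cell cannot be told apart. A rise passed the test for 4 of 14 tested macrophage markers and a fall for 0, and the 15 listed markers summed to 19842 and 27400 normalized counts in the KO pair, against 15250 and 12713 in the WT pair. Of 14 monocyte markers 7 rose and 0 fell, with sums of 194077 and 183839 in the KO pair, against 129574 and 110544 in the WT pair. Of 12 NK cell markers 10 rose and 0 fell, with sums of 21479 and 25495 in the KO pair, against 12160 and 12135 in the WT pair. Of 13 neutrophil markers 2 rose and 0 fell, with sums of 260218 and 244613 in the KO pair, against 224303 in WT 1 and 86823 in WT 2.

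None of these markers was at 0 in any library. The complement gene C1qa rose by 0.77 (limma adjusted p = 0.0329), the macrophage colony-stimulating factor receptor Csf1r by 0.54 (adjusted p = 0.0216) and the NK receptor Ncr1 by 0.93 (adjusted p = 0.0147). The neutrophil gene S100a8 did not pass, with a difference of 0.79 (limma adjusted p = 0.324). It was 1.56 without WT 1 and 0.013 without WT 2. Other markers of these lists are not given singly. Of the 11 genes listed as pan dendritic cell markers 10 fell, 0 rose and 1 did not pass. Among those that fell was Flt3, a cytokine receptor on which dendritic cells depend, by 0.73 (limma adjusted p = 0.0147). The others listed are Zbtb46, Itgax, Dpp4, Batf3, Kmo, and Ciita, H2-Aa, H2-Ab1, H2-Eb1 and Cd74 of the MHC class II path. As several belong to 1 path, the 11 are not independent markers. The pan dendritic cell markers had sums of 401598 to 430423 normalized counts in KO, against 569037 to 583049 in WT. Sums of different lists are not corrected for length or number of genes and are not compared with each other. The part of these cell type markers in the difference of Fcgr3 was not tested.

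Fcgr2b is also a receptor of B cells, and of 10 B cell markers 0 rose and 0 fell, with sums of 3862 and 6899 in the KO pair, against 9287 and 5057 in the WT pair. Among them, Cd79a differed by 0.14 (limma adjusted p = 0.773). Basophils and mast cells use the gamma chain with the IgE receptor. Of 6 tested markers of these cells 4 rose and 0 fell. The 9 listed markers summed to 5456 and 7711 normalized counts in the KO pair, against 2404 and 1747 in the WT pair. The part of these markers in the values of Fcer1g was not tested.

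Of the remaining marker lists, 2 of 11 conventional DC1 genes and 2 of 9 conventional DC2 genes fell and 0 rose in either. Among 10 plasmacytoid markers 0 rose and 0 fell, with sums of 46965 and 25739 in the KO pair, against 25294 and 32086 in the WT pair. Of 12 erythroid markers 6 rose and 0 fell, with a median of 1.70. Their sums were 46116 and 68274 in the KO pair, against 3973 and 19302 in the WT pair. Of the tested T cell and platelet markers, 0 of 6 and 0 of 2 passed. Several genes stand in 2 lists, such as Clec9a, Siglech, Ms4a2 and Fcer2a.

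**Figure D5:**
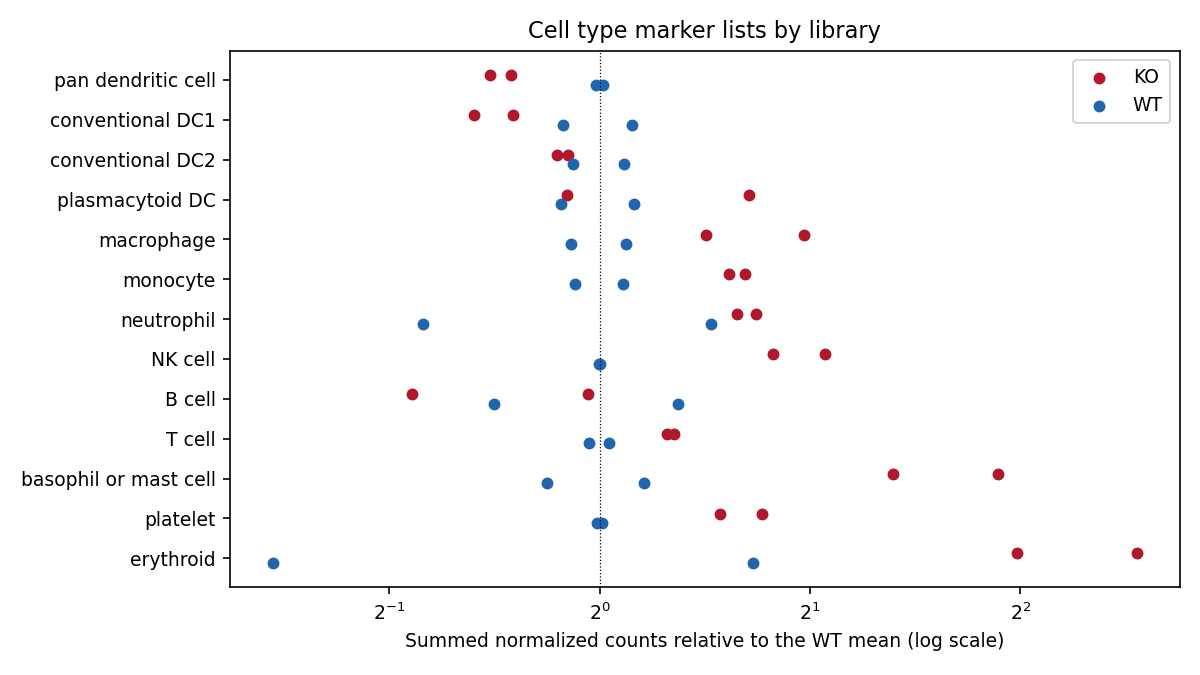
Summed normalized counts of each cell type marker list in each library, relative to the mean of the WT libraries on a log scale, with KO in red above WT in blue. The pan dendritic cell sums are lower in KO, and the NK cell sums are 21479 and 25495 in KO, against 12160 and 12135 in WT.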

How the data were processed

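RNA of sorted mouse splenic dendritic cells was analysed in 2 KO and 2 WT libraries, whose cDNA came from a strand-specific kit that reads total RNA from minute amounts, per the labels' protocols. The deposited table holds log2 values that the authors scaled between libraries, with a shared lowest value of 8.04 and compressed low values, as a variance-stabilizing transform gives. The tools Salmon (1.10.1) and DESeq2 and the build GRCm39 are named in the submitters' processing notes without saying what each did. Normalized counts were obtained by undoing the transform from the shared lowest value. Their totals after scaling were 30952251 and 30274060 for the KO pair, against 29002408 and 29377044 for the WT pair, so the depth in reads is unknown. A log2 difference understates the fold of low genes.

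Symbols came from GENCODE M21 (17289 of 17300 matched). Genes whose mean exceeded the lowest value by 1 log2 unit or more entered a two-sided moderated test in limma 3.58.1 (R 4.3.3) with a trend of variance on level, and p-values were adjusted by Benjamini-Hochberg over all 11864. The scripts were tested on simulated data. Ratios were tested with an exact permutation test. The members and lists were chosen with earlier results of these data known. Named genes were the 8 members, at most 4 past the threshold per pathway list by smallest p (2 places per direction, unused places given to the other), and cell type markers from the first 3 places of their lists. Genes said to be named after their values were seen are outside this rule. A planned pathway list is not reported here. Sequences are from RefSeq on GRCm38.p6.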

Additional observations from a re-analysis of the deposited data

How the results depend on the processing

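Over 11 alternatives, Fcgr3 was higher in KO in each (0.64 to 0.82) and passed in 9, the exceptions being those without KO A and without KO B. Fcgr1, Fcgr4, Fcer1g, Fcgrt and Syk kept their sign in each. The number of members past the threshold was 1, and 2 with a filter of 2 log2 units and with robust moderation, which added Fcgr4, and ran from 0 to 1 when a library was left out. Over all genes it was 822, and from 0 to 820 when a library was left out. With quantile normalization 648 passed, 366 higher and 282 lower, in place of 557 and 265, and with median centring 457 were higher and 296 lower of 753. The summed activating to inhibitory ratio was 0.58 as a difference of deposited log2 values, in place of 0.75, a scale that compresses low values, and 0.63 to 0.88 when a library was left out. Signs turned for genes near 0. When a library was left out, Fcgr2b ran from -0.066 to 0.038 (0.028 without KO B, 0.038 without WT 1), Card9 from -0.066 (without KO B) to 0.19, Lyn from -0.022 to 0.019 (0.019 without KO A, 0.0023 without WT 2), Malt1 from -0.059 to 0.025 (without KO A), Inpp5d up to 0.020 (without WT 2), B2m from -0.042 (without KO A) to 0.25, and Cd79a from -0.20 (without WT 2; -0.11 without KO B) to 0.48. Ptpn6 was at -0.024 with quantile normalization. Of 412 values of the 38 other named genes, 310 kept their side of the threshold, 93 lost it, 1 gained it and 8 turned sign. The causes were not tested. No paired analysis was possible because the KO columns carry none of the replicate numbers of the labels. With 2 libraries per group the precision is limited by their number, and the depth in reads is unknown.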
